A study of Mus musculus with 23 samples.

Results

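The cytosolic ribosomal protein genes are described here by small and large subunit in sorted cells of mouse breast tumours. Members are the rows of the count table whose symbol is Rps or Rpl followed by a number, with at most an added a or x, plus Rplp0, Rplp1, Rplp2 and Rpsa. The rule took 76 of 48397 gene symbols, of which 30 encode proteins of the small subunit and 46 proteins of the large subunit. All 76 members passed the filter on low counts in every comparison. The study grew Met1-iRFP tumours, from a mouse mammary cancer line that carries a near-infrared fluorescent protein, in FVB mice that exercised or stayed sedentary. Cells were sorted into an iRFP-positive fraction, labelled cancer cells, and an iRFP-negative fraction, labelled tumour microenvironment (TME). The 4 groups hold 8 libraries of cancer cells from sedentary mice, 7 of cancer cells from exercised mice, 4 of TME cells from sedentary mice and 4 of TME cells from exercised mice. Every group shares the strain, the tumour line and the reporter, and the labels give neither the age of the mice nor the kind or length of exercise. A cancer cell that lost the reporter would fall into the TME fraction, and the TME fraction is a mixture of cell types.

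Each ribosome is built from a small subunit, which reads the mRNA, and a large subunit, which joins amino acids. Nearly every ribosomal protein is present in a single copy per ribosome, so the genes of both subunits are needed in balanced amounts, and growing cells spend much of their translation on them. Their mRNAs are known for a 5′ terminal oligopyrimidine tract (TOP), a run of C and U at the start of the mRNA through which mTORC1 and the protein Larp1 control translation more than mRNA level. The genes are also known for many processed pseudogenes, copies of their mRNA inserted elsewhere in the genome, which can share sequencing reads with the parent gene.

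The tract was looked for in RefSeq promoter windows of GRCm38.p6, which held 56 of the 76 members. A tract was a run of at least 8 bases made of C and T with at least 1 C, on the coding strand, from 30 bases before to 50 bases after the annotated start. It was found in 45 of the 56 members, or 80.4%, and in 32.1% of all 27025 genes with a window. On the opposite strand the shares were 16.1% of members and 35.1% of all genes. The 30-base windows below are shown for members to which the results return, with the tract in capitals, and Rpl5 is the one among them that was higher in cancer cells.
Rps6, chr4:86857345-86857374, minus strand: gtcgggCCTCTTTTTCgtgacgcctcccag
Rps9, chr7:3704029-3704058, plus strand: gccttgTCTCTCTTTgtctcgggcctgagt
Rps18, chr17:33955644-33955673, minus strand: cttccgCTCTCTCTTCCacaggaggcctac
Rplp2, chr7:141447640-141447669, plus strand: tcagcgTCTTCCTTTCgccgccggacgccg
Rpl38, chr11:114668572-114668601, plus strand: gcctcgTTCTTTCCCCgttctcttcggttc
Rpl5, chr5:107900502-107900531, plus strand: cagccaCTCTTTCTCacgtcgcttgcgtgc
In Rps6, the protein phosphorylated by the kinases downstream of mTORC1, the run spans the annotated start. In Rpl5 it begins 20 bases upstream of the start that RefSeq gives. A match is a description of these letters and not a measured site of control.

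The libraries held 15924340 to 37388479 counts. Mitochondrially encoded genes took 42.2% and 14.5% of the counts in the sedentary TME libraries 4 and 6 and 1.86% to 8.63% in the other libraries. The sorts differed in leukocyte markers as the labels say. The summed level of 10 pan-leukocyte genes was 32.5 to 117 CPM in cancer libraries and 284 to 1631 in TME libraries. CPM are counts scaled to the library total with edgeR's TMM factors. Mammary epithelial genes overlapped, with 8 genes together at 275 to 538 CPM in cancer and 228 to 523 in TME libraries. The 4 that could be tested had a median cancer minus TME difference of -0.07 log2 (range -2.81 to 0.35). How much tumour cell RNA the TME fraction held was not tested. Macrophage genes were counted in every cancer library, at 102 to 201 CPM for the 10 together, and the share of this in the differences below was not tested. Fewer cells of a type and less RNA per cell cannot be told apart in such bulk samples.

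Ribosomal protein genes together took 0.926% to 1.62% of all counts in a library of cancer cells and 1.31% to 1.79% in a library of TME cells. The share was 1.30% ± 0.23 (SD, n = 8) in sedentary and 1.19% ± 0.08 (SD, n = 7) in exercised cancer cells. It was 1.55% ± 0.17 (SD, n = 4) in sedentary and 1.54% ± 0.23 (SD, n = 4) in exercised TME cells. Ranges of the sorts thus overlapped, and the exercised and sedentary groups differed by less than their spread. The lowest share was that of sedentary cancer library 4, at 0.926% (95% Wilson interval 0.922% to 0.931%, counting error only), and the highest in cancer cells was that of sedentary library 7, at 1.62%. With mitochondrial counts left out of the total, the mean share was 1.91% ± 0.38 (SD, n = 4) in sedentary and 1.62% ± 0.22 (SD, n = 4) in exercised TME cells, and sedentary TME library 4 rose from 1.39% to 2.42%.

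Small subunit genes took 0.359% to 0.651% of the counts in cancer libraries and 0.549% to 0.749% in TME libraries. Large subunit genes took 0.568% to 0.974% and 0.764% to 1.06%. The ratio of small to large subunit counts was 0.66 ± 0.03 (SD, n = 15) in cancer libraries and 0.72 ± 0.02 (SD, n = 8) in TME libraries. Its range was 0.600 to 0.691 in cancer cells and 0.681 to 0.749 in TME cells, and the lowest TME value, that of exercised library 7, lay inside the range of cancer cells. No test was planned for these shares.

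**Figure D1:**
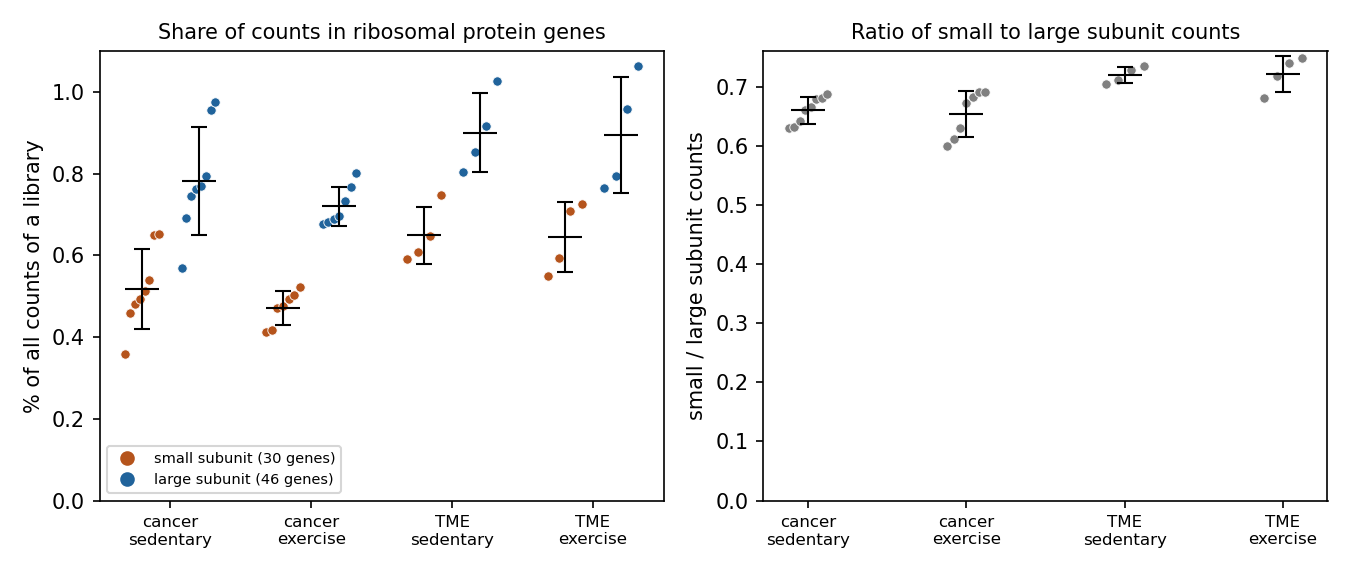
Share of all counts in a library taken by 30 small and 46 large subunit genes (left, percent) and the ratio of small to large subunit counts (right), with 1 point per library and black bars for the mean ± SD of each group. The ratio is 0.600 to 0.691 in cancer libraries and 0.681 to 0.749 in TME libraries.

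Levels of single members ranged over a 436-fold span per kilobase of transcript. Compared per kilobase (mean of the 4 group means, in CPM per kb), Rpl38 stood highest at 1604. Its protein is known for favouring the translation of Hox mRNAs in the embryo. Rps27a, made as a fusion with ubiquitin, followed at 1073, then the small subunit gene Rps21 at 773, Rpl41, the smallest ribosomal protein, at 691, and Rps14, whose human counterpart is lost in a myelodysplastic syndrome, at 677. The median member was at 164, with 193 for small and 151 for large subunit genes. The lowest of the other members, Rps23, was at 56.4, and below it 4 large subunit genes stood apart: Rpl23a at 8.64, Rpl29 at 6.71, Rpl13a at 6.56 and Rpl24 at 3.68. Transcript lengths come from 1 GENCODE model per gene, and models with long ends, such as Rps20 with 3706 bases, lower a level per kilobase.

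Many short stretches of ribosomal protein transcripts occur in more than one gene. Over the 76 members, a median of 39.4% of all 50-base windows of the transcript occurred in no other annotated gene, with a lowest share of 1.35% in Rps27. In 50 members the share was under 50%. At 100 bases the median was 54.3%. The 4 members with the lowest levels combined copies elsewhere with an overlapping gene in 3 cases: overlapping genes held 69.4% of the windows of Rpl24, 57.4% of those of Rpl13a and 32.9% of those of Rpl23a, but none of those of Rpl29, which shared windows with 84 other genes. The median level was 143 CPM per kb in members under 50% unique and 254 in the other 26, and Spearman's rho between uniqueness and level was 0.26 across the 76 members, as a description across genes that share libraries. How the authors treated reads with several matches is not given in the sources used here, and its part in these levels was not tested.

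The stretches below show how close the copies are. They are 60 bases from the middle of the coding sequence of each of a pair of low-count members and the best matching stretch of the copy with the most shared windows, with differing bases in capitals.
Rpl23a, coding bases 205 to 264: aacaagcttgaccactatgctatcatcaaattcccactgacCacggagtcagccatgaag
Gm10132, processed pseudogene: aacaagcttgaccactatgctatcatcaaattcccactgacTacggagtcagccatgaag
Rpl24, coding bases 206 to 265: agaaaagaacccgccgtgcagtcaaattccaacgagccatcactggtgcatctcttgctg
Gm9385, processed pseudogene: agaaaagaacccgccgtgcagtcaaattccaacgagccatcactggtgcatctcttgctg
Rpl23a (chr11:78180932-78183584) and Gm10132 (chr14:77251847-77252314) differed by C42T, counted from the first base shown with the member's base first. Rpl24 (chr16:55966275-55971435) and Gm9385 (chr9:116040593-116041064) did not differ in the 60 bases. Rpl24 had a mean of 57.7 counts per library and Gm9385 34.4, while Rpl23a had 112 and Gm10132 4.83. The 274 named pseudogenes of ribosomal proteins, symbols that start with Rps or Rpl and hold -ps, together took 0.012% to 0.025% of the counts. Copies under other symbols, such as Gm9385 and Gm10132, are not among the 274, and their counts were not summed.

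**Figure D2:**
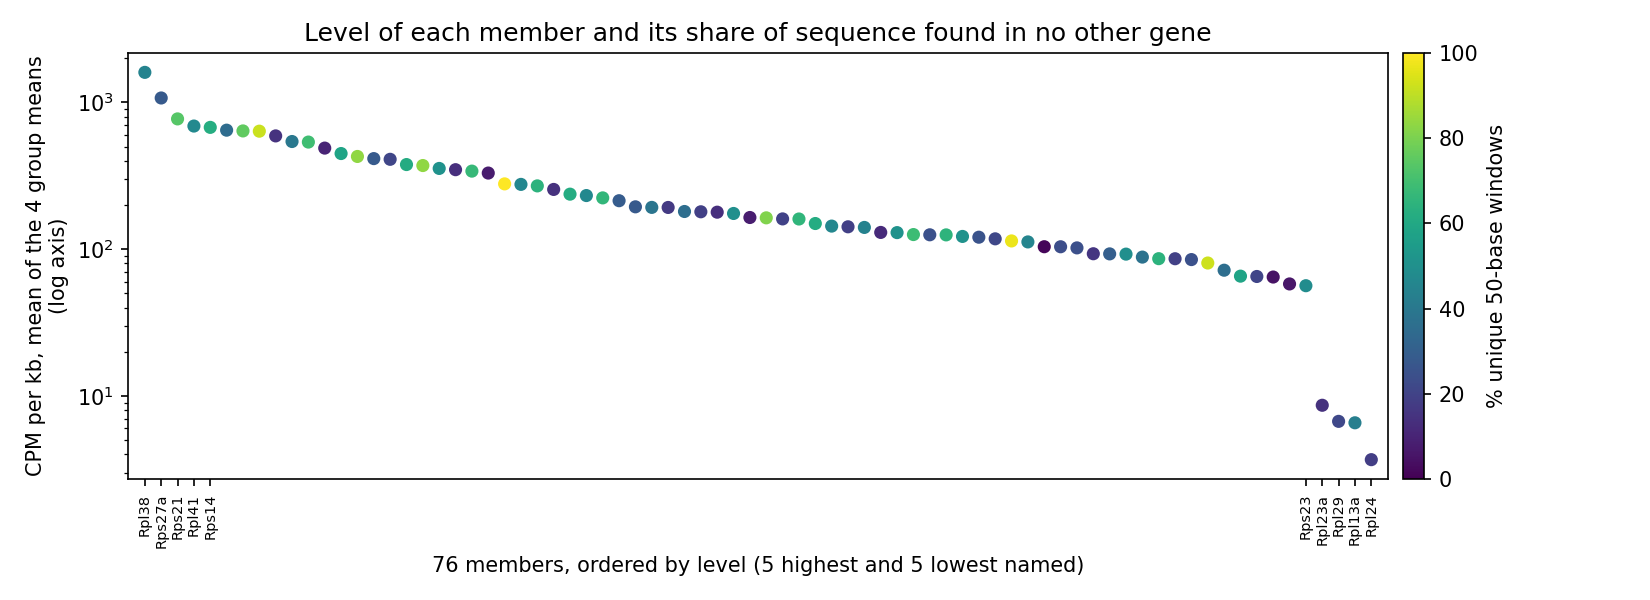
Level of each of the 76 members per kilobase (CPM per kb, log axis), ordered from highest to lowest, with the 5 highest and 5 lowest named and the colour giving the percent of its 50-base windows found in no other gene. Rpl23a, Rpl29, Rpl13a and Rpl24 lie between 3.68 and 8.64, below the 56.4 of Rps23.

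Among the proteins of the stalk, which draws elongation factors to the large subunit, Rplp0 was level across the groups. Its means were 602 ± 83 CPM (SD, n = 8) in sedentary cancer, 601 ± 46 (SD, n = 7) in exercised cancer, 647 ± 82 (SD, n = 4) in sedentary TME and 587 ± 33 (SD, n = 4) in exercised TME cells, and neighbours in this order differed by less than their spread. Rplp1 ran from 243 CPM in sedentary cancer to 295 CPM in exercised TME cells, again within the spread of the groups. Rplp2 departed from its partners, with 177 in both cancer groups, 300 in exercised and 437 in sedentary TME cells. The X-linked small subunit gene Rps4x was the most even member, with a coefficient of variation within groups of 7.59%, and its group means lay between 386 and 445 CPM. Rpl39, a small protein of the exit tunnel, also had overlapping groups, at 210 to 242 CPM. Rpl22, an RNA-binding protein needed for T cell development, stood at 246 and 255 CPM in sedentary and exercised cancer cells and at 404 and 308 in the corresponding TME cells.

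Most ribosomal protein genes were lower in cancer cells than in TME cells. By edgeR's quasi-likelihood test at an adjusted p of 0.05, 49 of 76 members were lower and 2 were higher in cancer cells, against 25.3% lower and 27.3% higher among all 17503 genes tested, of which 52.6% passed in either direction. The median difference of the members was -0.40 log2, where that of all genes was 0.01, and 66 of the members lay below 0. In the small subunit 22 of 30 genes were lower and none higher, with a median of -0.46. In the large subunit 27 of 46 were lower and 2 higher, with a median of -0.34. The members' median stayed below 0 under each other scaling of the libraries. That median moved to -0.06 with the correction for transcript length described below. Members with at least 50% unique windows had 17 of 26 lower and a median of -0.40, and the other members 32 of 50 lower and a median of -0.39.

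Rps9 of the small subunit (chr7:3703993-3706897) was at 114, 179 and 258 CPM (lowest, median, highest) in sedentary and at 154, 167 and 218 in exercised cancer cells. In TME cells it was at 471, 319, 289 and 387 in sedentary libraries 4, 6, 9 and 10 and at 316, 316, 266 and 282 in exercised libraries 7, 8, 9 and 10. Every cancer library was below every TME library. The difference was -0.86 ± 0.10 log2 (SE, adjusted p = 1.09e-07). Its promoter carries the tract shown above, and 67.0% of its windows are unique.

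Rpl17, which lines the exit of the peptide tunnel (chr18:74998558-75003381), was at 54.5, 62.8 and 82.5 CPM in sedentary and at 41.7, 60.8 and 68.6 in exercised cancer cells. TME libraries held 179, 121, 85.5 and 121 in sedentary mice and 137, 137, 98.3 and 87.6 in exercised mice. Here too the sorts did not overlap, which held for 2 of the 76 members, Rps9 and Rpl17, and for 5.19% of all genes in this direction. No member had every cancer library above every TME library, as 4.35% of all genes had. The difference was -0.97 ± 0.11 log2 (SE, adjusted p = 8.36e-08).

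Rpl41 had the lowest fitted value, at -1.33 ± 0.18 log2 (SE, adjusted p = 2.59e-06). It was at 131 to 253 CPM in sedentary and 128 to 182 in exercised cancer cells, but at 878, 490, 228 and 557 in sedentary and 551, 286, 214 and 273 in exercised TME cells. Sedentary TME library 9 and exercised TME library 9 thus lay within the range of cancer cells, and sedentary TME library 4 stood far above the rest. Rplp2 of the stalk followed with -1.03 ± 0.16 log2 (SE, adjusted p = 1.27e-05). Rps18, at the head of the small subunit, differed by -0.98 ± 0.12 log2 (SE, adjusted p = 3.3e-07), and Rpl23, on the face that meets the small subunit, by -0.73 ± 0.10 log2 (SE, adjusted p = 9e-07).

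The 2 members that were higher in cancer cells, Rpl10 and Rpl5, belong to the large subunit. Rpl10 (chrX:74270812-74273135), which is added last to the large subunit, was at 128, 153 and 172 CPM in sedentary and at 103, 147 and 171 in exercised cancer cells. TME libraries held 121, 94.6, 109 and 103 in sedentary mice and 97.5, 149, 167 and 91.2 in exercised mice. Exercised TME libraries 8 and 9 overlapped with cancer cells. The difference was 0.33 ± 0.11 log2 (SE, adjusted p = 0.00952), and 28 of 33 alternative fits called it. Rpl5 (chr5:107900502-107909005), which carries an rRNA into the large subunit and binds Mdm2, differed by 0.26 ± 0.07 log2 (SE, adjusted p = 0.00372), with 95.6 to 161 CPM in sedentary cancer, 115 to 141 in exercised cancer, 97.1 to 124 in sedentary TME and 104 to 120 in exercised TME cells. Only 7.87% of the windows of Rpl10 and 6.16% of those of Rpl5 are unique. Rps4x (0.12 ± 0.06 log2, adjusted p = 0.102), Rpl12 of the stalk base (0.14 ± 0.08, adjusted p = 0.177) and Rps7 (0.12 ± 0.10, adjusted p = 0.346) had positive values that did not pass.

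Of the other genes named for every comparison, Rpsa, also known as a laminin receptor, was lower in cancer cells by -0.51 ± 0.13 log2 (SE, adjusted p = 0.00188), Rpl22 by -0.49 ± 0.09 (SE, adjusted p = 3.83e-05) and Rps27a by -0.33 ± 0.12 (SE, adjusted p = 0.0225). Rplp0 (-0.04 ± 0.07), Rplp1 (-0.25 ± 0.15) and Rps6 (-0.20 ± 0.10) did not pass, and the sign of all 3 turned with the correction for transcript length described below. Rpl39 (0.11 ± 0.13) did not pass either. Of 33 alternative fits, 7 called Rps6, 2 called Rplp1, and 1 each called Rplp0 and Rpl39. In sedentary mice alone 37 members were lower and 2 higher, against 19.8% and 21.0% of all genes. In exercised mice alone 28 were lower, against 17.3%. Median differences were -0.40 and -0.37 log2. With the library number as a block in exercised mice, a fit that rests on 3 numbered pairs, 13 members were lower, against 8.72% of all genes, and the median was -0.44. Without sedentary TME libraries 4 and 6, 42 members were lower and 1 was higher, against 23.9% and 19.0% of all genes. The median was -0.38, where that of all genes was -0.04.

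**Figure D3:**
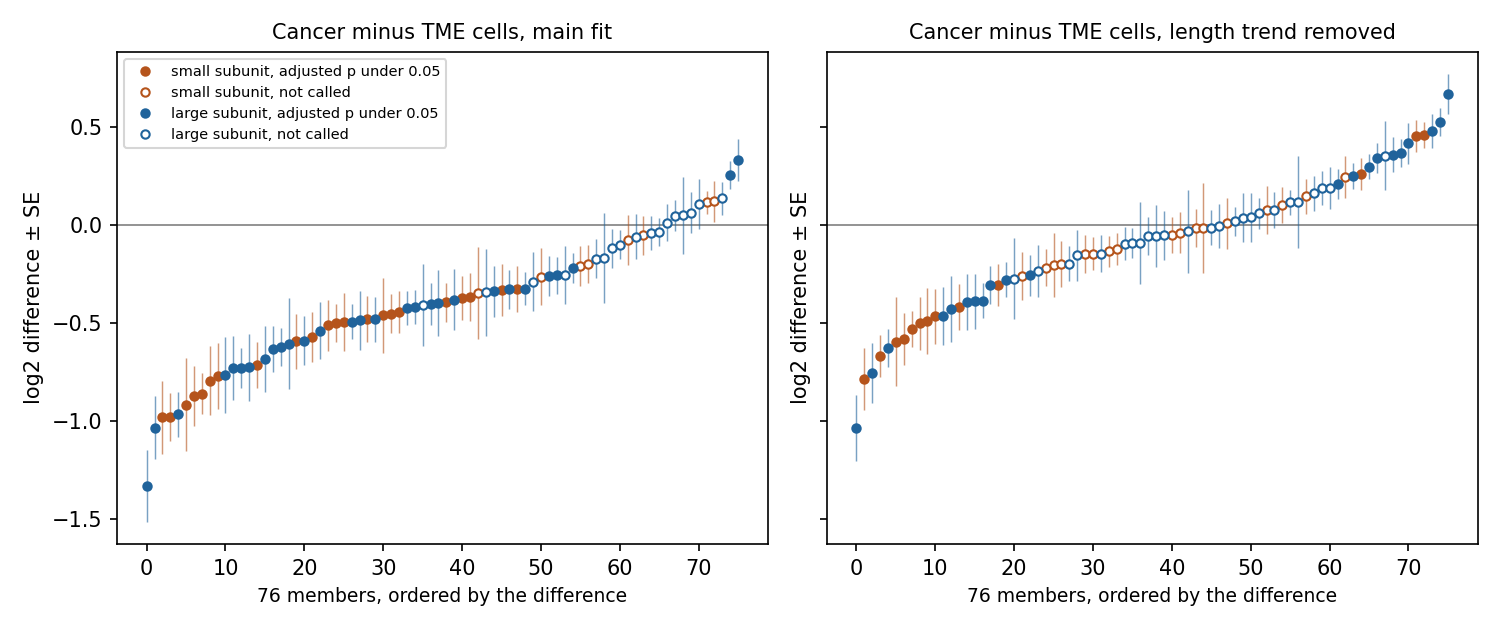
Log2 difference of cancer minus TME cells ± SE for the 76 members, each panel in its own order, with filled points for an adjusted p under 0.05 by edgeR. Without a correction (left) 49 members are lower and 2 higher, and with each library's trend over transcript length removed (right) 21 are lower and 13 higher.

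Ribosomal protein transcripts are short, with a median of 705 bases against 2421 for all genes tested, and short genes as a class were lower in cancer libraries. Among the 2820 tested genes of up to 1000 bases that are no members, 26.7% were lower and 8.87% higher, with a median of -0.19 log2, where longer genes had a median of 0.04. With a smooth trend over transcript length removed from each library, 21 members were lower (16.6% of all genes) and 13 higher (37.2% of all genes). This correction moved the median of all genes from 0.01 to 0.18 log2 and that of the members from -0.40 to -0.06. Relative to all genes the members stood at -0.40 log2 before and -0.23 after it, and 59 of 76 lay below the median of all genes after it. The same 21 members were lower in both fits, 28 lost the call and none turned from lower to higher. Members lower in both include Rpl41 (-1.04 ± 0.17 with the trend removed), Rplp2 (-0.75 ± 0.15), Rps18 (-0.67 ± 0.11), Rpl17 (-0.63 ± 0.09) and Rps9 (-0.53 ± 0.09). Rpl10 and Rpl5 were higher in both fits, and 11 members were higher only with the trend removed, among them Rplp0 (0.30 ± 0.06) and Rps4x (0.46 ± 0.07). Why short genes differ between the sorts was not tested.

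Ribosomal proteins that the symbol rule leaves out were lower too, and all 4 that were measured passed the test. Examples are Fau, a fusion of a ubiquitin-like protein with a small subunit protein (-1.08 ± 0.15 log2, adjusted p = 2.83e-06), Rps3a1 (-0.44 ± 0.10, adjusted p = 0.000511) and the small subunit scaffold Rack1 (-0.26 ± 0.08, adjusted p = 0.00493). None of 5 tested paralogs passed, among them Rpl22l1 (0.20 ± 0.13, adjusted p = 0.203). Mitochondrial ribosomal proteins, made from other genes for the ribosomes of mitochondria, had 34 of 78 lower (43.6%) and 5 higher (6.41%), with a median of -0.20. Nuclear genes of the respiratory chain, whose transcripts are also short, had 36 of 70 lower (51.4%) and 7 higher (10%), with a median of -0.29. Of all genes 25.3% were lower and 27.3% higher. Of the other genes of up to 1000 bases 26.7% were lower and 8.87% higher. All these counts are from the fit without the length correction.

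Other genes of translation had calls in both directions, beside the 27.3% higher and 25.3% lower of all genes. Of 24 other TOP mRNAs, 9 were lower and 6 higher, with a median of -0.07. Pabpc1, which binds poly(A) tails, was higher in cancer cells (0.58 ± 0.06 log2, adjusted p = 5.65e-09), whereas Tpt1 (-0.43 ± 0.09, adjusted p = 0.000354) was lower. Translation initiation factors had 15 of 31 higher and 9 lower, with Eif2s1, a subunit of the factor that brings the initiator tRNA, at 0.84 ± 0.08 log2. Ribosome assembly factors had 14 of 45 higher (31.1%) and 10 lower (22.2%), near the shares of all genes, with Polr1a, the large subunit of RNA polymerase I, at 0.54 ± 0.06 and the rRNA methyltransferase Fbl at -0.60 ± 0.08. In the list of mTORC1 and Myc control 8 of 22 were higher (36.4%) and 6 lower (27.3%), with Mtor itself at 0.48 ± 0.07 log2 and Lamtor4, which holds mTORC1 at the lysosome, at -1.01 ± 0.10. Among members, the 45 with a pyrimidine tract had a median of -0.40 log2 and 28 lower, and the 11 without one a median of -0.49 and 7 lower.

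In cancer cells, no ribosomal protein gene passed the test for exercise. By edgeR's quasi-likelihood test 0 of 76 members and 0 of 15096 genes (0%) passed. At an unadjusted p under 0.05 stood 13 of 76 members and 1901 of 15096 genes. DESeq2 called 2 members lower, Rps14 and Rpl12, where it called 0.603% of all genes lower, and limma voom with quality weights called 2, Rps14 and Rpl41, where it called 0.596%. The median of the members was -0.12 log2 (exercised minus sedentary), with -0.18 in the small and -0.10 in the large subunit, and 68 of 76 values lay below 0, beside a median of -0.01 over all genes. The median was -0.12 also over the other genes of up to 1000 bases, and -0.04 over the members once the length trend was removed. Without sedentary cancer library 4, the library with the lowest share, the members' median was -0.20.

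Rps14 was at 335, 411 and 546 CPM (lowest, median, highest) in sedentary and at 251, 318 and 382 in exercised cancer cells, so the groups overlapped. The difference was -0.49 ± 0.12 log2 (SE, adjusted p = 0.121), with adjusted p from 0.0166 to 0.999 over 26 alternative fits. Rpl12 was at 420, 503 and 709 in sedentary and at 369, 403 and 461 in exercised cells (-0.40 ± 0.10, adjusted p = 0.131). Rpl41 differed by -0.43 ± 0.12 (adjusted p = 0.182), Rps4x by -0.20 ± 0.06 (adjusted p = 0.21) and Rpl34 by -0.31 ± 0.10 (adjusted p = 0.235). On the positive side Rpl7a (0.11 ± 0.16), Rpl36a (0.20 ± 0.31), Rps13 (0.11 ± 0.22), Rpl15 (0.05 ± 0.11) and Rps2 (0.07 ± 0.17) had values within or close to their standard errors. No member had all exercised libraries on one side of all sedentary ones, and 0.298% and 0.053% of all genes had (higher and lower). The pan-leukocyte genes, by contrast, had 10 of 10 values above 0 in these libraries, with a median of 0.57 log2 and none past the threshold. With their level as a covariate the members' median was -0.17.

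**Figure D4:**
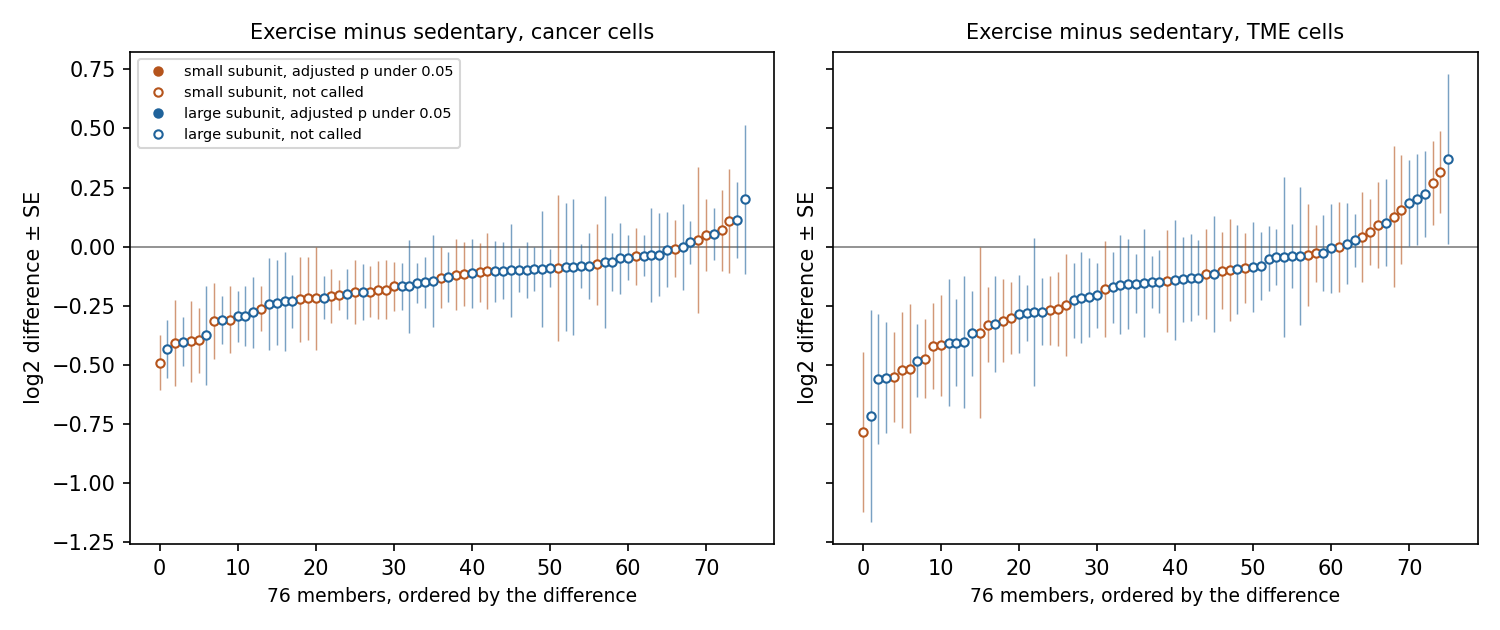
Log2 difference of exercised minus sedentary mice ± SE for the 76 members in cancer cells (left) and TME cells (right), each panel in its own order. All points are open because no member passed an adjusted p of 0.05, and 68 values in cancer cells and 62 in TME cells lie below 0.

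In TME cells no member passed either. The count was 0 of 76 by edgeR and by DESeq2. By edgeR 8 of 76 members and 1373 of 16273 genes had an unadjusted p under 0.05. Among all 16273 genes edgeR called 0 (0%), and DESeq2 called 0.166% higher and 0.086% lower. The median was -0.15 log2, with -0.16 in the small and -0.15 in the large subunit, and 62 values lay below 0. This shift turned on 1 library: without sedentary TME library 4, in which mitochondrial genes took 42.2% of the counts, the median was 0.002 log2. Without sedentary library 9 it was -0.27, without exercised library 7 -0.24 and without exercised library 9 -0.08. Cell type markers differed between the same groups, though none passed the test. All 10 pan-leukocyte genes tested (median 1.10 log2), all 10 macrophage genes (1.07) and all 6 mast cell genes (1.49) had values above 0, and all 8 endothelial genes had values below 0 (median -1.32). Summed levels were 398 to 507 CPM in sedentary and 284 to 1631 in exercised libraries for the pan-leukocyte genes, and 85.7 to 421 and 39.1 to 112 for the endothelial genes. Single libraries set these ranges. Endothelial genes were at 421 in sedentary library 4 and at 107, 93.4 and 85.7 in sedentary libraries 6, 9 and 10. Pan-leukocyte genes were at 1537 and 1631 in exercised libraries 8 and 9 and at 284 and 419 in exercised libraries 7 and 10. The part of these cell types in the members' shift was not tested. Rpl38 was at 735, 683, 552 and 663 CPM in sedentary libraries 4, 6, 9 and 10 and at 600, 457, 407 and 441 in exercised libraries 7, 8, 9 and 10, with 1 exercised library inside the sedentary range (-0.48 ± 0.15 log2, adjusted p = 0.586). Rps12 (-0.55 ± 0.19), Rps2 (-0.47 ± 0.17) and Rplp2 (-0.55 ± 0.23) had the same adjusted p of 0.586. Positive values were those of Rps25, which helps ribosomes start on viral internal entry sites (0.32 ± 0.17), Rps16 (0.27 ± 0.18), Rpl10 (0.22 ± 0.18), Rpl35a (0.20 ± 0.19) and Rpl29 (0.37 ± 0.36). No member separated the groups completely, where 1.96% of all genes did so upward and 1.78% downward.

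The difference of the exercise effect between cancer and TME cells did not pass for any member. By edgeR the count was 0 of 76, beside 0 of 17503 genes (0%). An unadjusted p under 0.05 was found for 3 of 76 members and 1316 of 17503 genes. DESeq2 called none of the members, and 1 gene higher and 1 lower among all 17503. The median was 0.05 log2, with 44 values above and 32 below 0. The smallest p belonged to Rpl22 (0.44 ± 0.18 log2, adjusted p = 0.595), followed by Rps25 (-0.46 ± 0.20, adjusted p = 0.617) and Rps2 (0.56 ± 0.27, adjusted p = 0.654). Rplp2 (0.54 ± 0.33), Rps24 (0.58 ± 0.36) and Rps10 (0.47 ± 0.31) on one side, and Rpl29 (-0.73 ± 0.39), Rpl35a (-0.38 ± 0.21), Rps16 (-0.48 ± 0.29) and Rpl10 (-0.33 ± 0.21) on the other, did not pass.

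Spread between libraries of one group was wide for ribosomal protein genes. The median coefficient of variation within groups was 20.5% over the members and 12.1% over 4676 other genes in the same band of expression (46.7 to 404 CPM), and 5 members lay under that median of the other genes. These other genes were matched on CPM and not on transcript length, whose part in the spread was not tested. Rps19 varied most, at 41.4%, and Rps4x least, at 7.59%. Members did not vary as one. In exercised cancer cells Rps27a was at 777, 740, 750 and 735 CPM in libraries 1, 2, 4 and 5 and at 417, 443 and 512 in libraries 7, 8 and 10. Rpl36a was at 219, 188, 213 and 277 in the first of these and at 341, 354 and 441 in the others. The libraries high in one gene were thus low in the other. In exercised TME cells Rpl10 was at 149 and 167 CPM in libraries 8 and 9 and at 97.5 and 91.2 in libraries 7 and 10. Libraries 8 and 9 also held more counts of immune cell markers, with pan-leukocyte genes at 1537 and 1631 CPM together against 284 and 419 in libraries 7 and 10, macrophage genes at 3028 and 3488 against 687 and 864, and mast cell genes at 859 and 707 against 100.3 and 209.6. The part of these cells in the level of Rpl10 was not tested, and the labels give no batch.

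**Figure D5:**
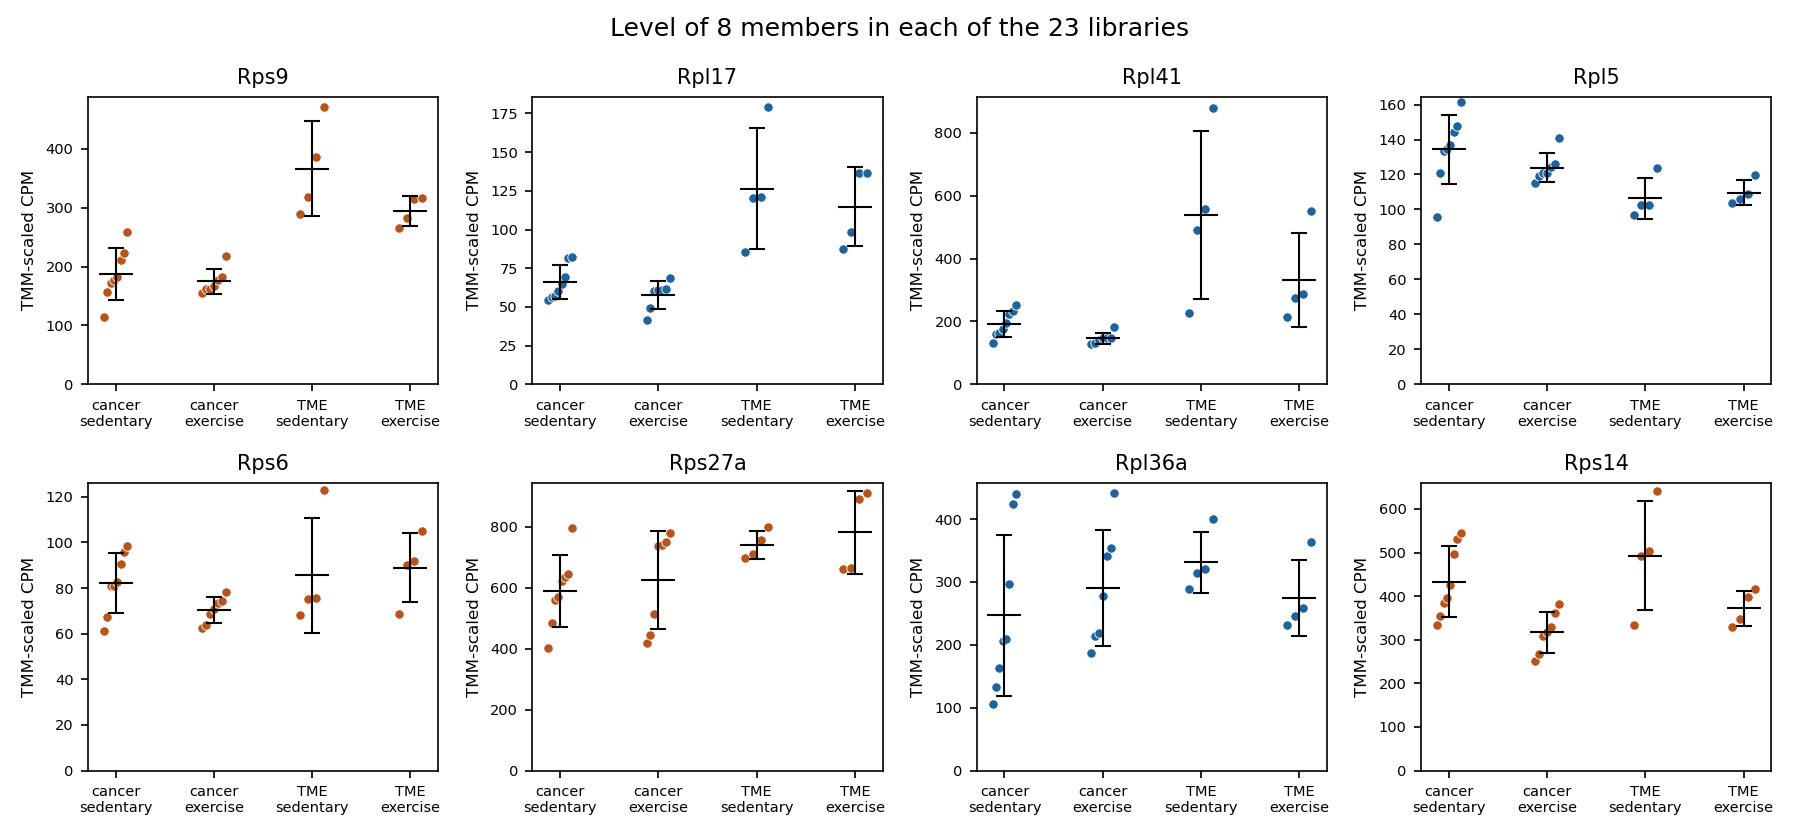
Level of 8 members (TMM-scaled CPM, linear axes from 0) in each library by group, with black bars for the mean ± SD, small subunit genes in orange and large subunit genes in blue. Rps9 and Rpl17 separate the sorts, Rpl41 is highest in sedentary TME library 4 at 878, and Rps27a and Rpl36a are spread widely within exercised cancer cells.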

How the data were processed

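Sequencing of polyA RNA covered 23 libraries. RNA was isolated with Trizol and prepared with the KAPA Standard kit, per the labels' protocols. The submitters' processing notes name STAR, featureCounts and mm10. Versions, annotation, strand and the handling of reads with several matches were not given in the sources used here. Raw counts per gene symbol were deposited by the authors, and 0 columns were left out.

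Counts were tested in R 4.3.3 with edgeR 4.0.16 (filterByExpr, TMM, robust quasi-likelihood test, two-sided, Benjamini-Hochberg over all genes tested, threshold 0.05). Adjusted p-values are from this edgeR test where no tool is given. Exercise was fitted within each sort, and the other contrasts on all 4 groups. Nothing states that libraries are separate mice, so the p-values cover only the variation among these libraries, which may be technical. Replicates differed beyond sampling noise in all 61 pairs (lowest chi-square per degree of freedom 6.88). Fold changes are log2 ± SE. Totals of 15924340 to 37388479 counts set the depth, and the least counted member had 17 counts in its lowest library.

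Lengths, positions and unique windows (50 and 100 bases) use the GENCODE M21 models of GRCm38, 1 principal transcript per gene, and the shortest where several were equal. All 76 members matched, as did 96.8% of genes tested. The length trend was a spline with 5 degrees of freedom of log2 CPM (prior count 2) on log2 length, fitted per library and used as an offset. Promoter windows are from RefSeq.

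Alternatives were DESeq2 1.42.0, limma 3.58.1 voom with quality weights, RLE factors, TMM factors without ribosomal and mitochondrial genes, a mean CPM of at least 1 as the filter, no filter, pseudogene counts added to their parents, the length trend, the replicate number as a block, all libraries in 1 fit, a pan-leukocyte covariate, and libraries left out. The split by unique windows and the block within each treatment were added after the data were seen. Same-numbered exercised cancer and TME libraries deviated together (correlation 0.14 to 0.24, 3 of 3 pairs over 0.1). The highest correlation with another number was 0.05 to 0.16, so this is a weak hint of pairs that no label states. The number entered only the fits with a block. The main fits and their adjusted p-values treat all libraries as unpaired. Only the main edgeR fits, and none of the alternatives, were run on simulated data with known changes, with the outcome not reported here. Members and lists were chosen with earlier results of these data known. Genes named are 10 fixed members, up to 5 members with the smallest p in each direction of each comparison, the 5 highest and 5 lowest per kilobase, and up to 4 genes of a list with the smallest p. A few genes enter the counts without being reported by name here. Rps19, Rps20 and Rps27 were named after seeing their values.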

Additional observations from a re-analysis of the deposited data

Results flagged for a closer look

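In 8 of 144 groups of values, 1 library lay far from the others of its group by Dixon's test, where chance flags about 1 group in 20. Exercised cancer library 10 stood high in 4 large or small subunit genes. It held 165 CPM of Rpl23 (others 104 to 127), 182 of Rpl41 (others 128 to 147), 263 of the stalk gene Rplp2 (others 133 to 188) and 163 of Rps10 (others 93.7 to 117). Exercised cancer library 7 held 141 CPM of Rpl5, where the others had 115 to 126. In sedentary cancer cells, library 4, the one with the lowest share of ribosomal protein counts, was low in Rpl34 at 32.7 CPM (others 46.4 to 54.4). Sedentary cancer library 5 was high in Rps12 at 323 CPM (others 151 to 215). Sedentary TME library 4, in which mitochondrial genes took 42.2% of counts, held 123 CPM of Rps6, where the other 3 had 68.4 to 75.7.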

How the results depend on the processing

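For cancer against TME cells, removing the length trend gave 13 members higher and 21 lower (37.2% and 16.6% of all genes). The median was -0.056, and the sign of Rplp0 (0.30), Rplp1 (0.037) and Rps6 (0.15) turned. Without sedentary TME libraries 4 and 6, 1 member was higher (19.0% of all genes). Leaving out 1 library gave 1 to 2 members higher, 43 to 54 lower and medians from -0.48 to -0.36. Of all genes 21.5% to 27.9% were higher and 24.6% to 27.1% lower in these fits. For exercise in cancer cells, DESeq2 and voom each gave 2 members lower, voom turned Rps2 (-0.11), and leaving out 1 library gave Rpl15 values from -0.0086 to 0.13 and Rps2 values from -0.016 to 0.15. Leaving out 1 library gave medians of -0.20 to -0.08 for exercise in cancer cells, -0.27 to 0.002 in TME cells and -0.10 to 0.13 for their difference. The mean share in sedentary TME cells was 1.91% without mitochondrial counts. The cause of these changes was not tested. The 4 members with the lowest levels rest on few counts.

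Outside the 3 exercised pairs of sorts, replicate numbers gave no clear pairing. Correlations of deviations were 0.14 to 0.24 over those 3, each closest to its own number, -0.06 to 0.05 over the 4 sedentary pairs of sorts, with 2 closest, and -0.07 to 0.23 over 7 pairs of treatments within a sort, with 0 closest. With the number as a block, 13 instead of 28 members were lower in exercised mice alone and 42 instead of 37 in sedentary mice alone. Among all genes 8.72% instead of 17.3% and 17.5% instead of 19.8% were lower. Over both treatments, with the block, 2 members were higher and 45 lower in cancer than TME cells (21.9% and 20.2% of all genes). Rps7 (-0.059) and Rpl39 (-0.081) turned sign, and Rps2 turned sign for exercise in cancer cells (-0.021). For the difference of the exercise effects 1 member, Rpl36a (1.56 ± 0.26 log2, adjusted p = 0.0412), passed, beside 10 of 17503 genes higher and 4 lower. Among exercised cancer cells this rests on the paired libraries 7, 8 and 10, with Rpl36a at 341, 354 and 441 CPM. The unpaired libraries 1, 2, 4 and 5, at 219, 188, 213 and 277, do not enter. Without the block the adjusted p of Rpl36a was 0.84.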

Other observations

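The named pseudogenes of ribosomal proteins had low counts. Of 274, 102 could be tested between the sorts. In cancer cells 21 were lower (20.6%, against 25.3% of all genes) and none higher (against 27.3% of all genes). Their median was -0.38 log2, beside 0.01 over all genes and -0.19 over genes of up to 1000 bases that are no members. In cancer cells, 51 of 62 tested pseudogenes had values below 0 with exercise, with a median of -0.37 log2, and none passed the test. The median was -0.01 over all genes and -0.12 over those of up to 1000 bases that are no members. Rpl37rt, a retrocopy of Rpl37, was lower in cancer than in TME cells by -0.57 ± 0.12 log2 (adjusted p = 0.000154). How far their reads come from the parent genes was not tested.

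The paralog Rps27l, a relative of Rps27 known as a p53 target, had values of opposite sign with exercise. It was -0.41 ± 0.17 log2 in cancer cells and 0.63 ± 0.29 in TME cells, and the difference of -1.01 ± 0.32 did not pass (adjusted p = 0.542). Nuclear respiratory chain genes, like the members, had mostly values below 0 with exercise, 56 of 69 in cancer cells (median -0.16 log2) and 59 of 70 in TME cells (median -0.18), and none passed. Genes of up to 1000 bases that are no members also had medians below 0, at -0.12 in cancer and -0.08 in TME cells.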
